A study of Homo sapiens with 30 samples.

Results

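Genes that human embryos switch on when their own genome is first read, around the eight-cell stage, were followed through 30 RNA-seq libraries of H9 human embryonic stem (hES) cells. The genes were ZSCAN4, LEUTX, TPRX1, DUXA, ZSCAN5B, KDM4E, KHDC1L, ARGFX, DPRX and H1FOO, which made up 10 of the 28307 genes in each count table. They were chosen by name, with earlier results of these data known, and were matched by symbol in 9 cases. H1FOO was found through its RefSeq synonym as H1-8, the symbol used from here on. All 10 are protein-coding genes on autosomes, and 6 of them lie on chromosome 19 (ZSCAN4, LEUTX, TPRX1, DUXA, ZSCAN5B and DPRX).

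H9 is an established hES cell line, and each of the 10 groups held 3 libraries of ribosomal RNA-depleted total RNA. PXGL WT cells were H9 cells reset to the naive state in PXGL, a medium that combines inhibitors of MEK, tankyrase and protein kinase C with leukemia inhibitory factor. PXGL KO cells were the naive derivative of a single homozygous knockout clone, and the study states that its 3 libraries are technical replicates, while those of the other groups are biological ones. CRISPRi UT and CRISPRi Dox cells were 3 independent clones grown in PXGL that carried a doxycycline-inducible dCas9-KRAB repressor and a guide RNA against the same gene as in the knockout, left untreated (UT) or treated with doxycycline (Dox). Wild-type cells given doxycycline alone are not among the groups, so the drug, the repressor protein and the repression of its target cannot be told apart here. The siScr, siSPEN1 and siSPEN2 groups were naive PXGL cells that received control siRNA of scrambled sequence or 1 of the 2 SPEN siRNA mixes. SPEN is a nuclear RNA-binding co-repressor. NaiveCult WT cells were H9 cells reset with the commercial NaiveCult system, XACT KO cells were 3 clones with a homozygous deletion over the start sites of the long noncoding RNA XACT that were reset in the same way, and Primed WT cells were the conventional, primed H9 cells from which the others were derived. Naive cells grew on inactivated mouse embryonic fibroblasts, whose reads the authors filtered out, and primed cells grew on Matrigel without feeders. The libraries carry 3 identifier codes whose meaning the labels do not give, 1 each for the 4 PXGL knockout and CRISPRi groups, the 3 siRNA groups, and the NaiveCult WT, XACT KO and Primed WT groups. Culture medium and code therefore cannot be told apart where PXGL WT is set against NaiveCult WT or Primed WT.

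Shortly after fertilization the embryo lives on RNA stored by the oocyte. In human embryos the major wave of transcription from the embryonic genome comes at about the eight-cell stage, when the pioneer factor DUX4 and a set of paired-like (PRD-like) homeobox proteins act. LEUTX, TPRX1, DUXA, ARGFX and DPRX encode such homeobox proteins. ZSCAN4 and ZSCAN5B encode SCAN-domain zinc finger proteins, and ZSCAN4, which is known for its role at telomeres, is the most used marker of this stage and of the rare eight-cell-like cells found in naive hES cell cultures. KDM4E encodes a histone H3 lysine 9 demethylase, KHDC1L a small KH-domain protein of the KHDC1 family, and H1FOO the linker histone of the oocyte. Naive hES cells resemble the epiblast before implantation and primed hES cells the epiblast after it, so that both lie later than the eight-cell stage.

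The promoters of 6 of the 10 genes had an entry in the RefSeq promoter table (GRCh38.p14). The 250 bases before the start site are printed for 3 genes whose levels moved together between libraries (ZSCAN4, LEUTX and DUXA) and for KHDC1L, whose level did not follow theirs, a choice made after these values were seen. LEUTX has 2 entries, and the one printed is the downstream one, a choice made with the motif matches known. The other (chr19:39776203-39776502) held none of the motifs searched. ZSCAN5B is not printed, although it followed ZSCAN4 about as closely as DUXA did (Pearson's r of log2 CPM 0.86 and 0.87 over the naive libraries). The entries of ZSCAN5B held none of the motifs searched either. Every sequence is written 5′ to 3′ on the strand of its gene, and capitals mark each TAATCC, the core site of OTX-type homeodomains, and each TATAAA, the core of the box named after it, on either strand. A match on the opposite strand appears as the reverse complement of these letters.
ZSCAN4 (chr19:57668685-57668934, plus strand): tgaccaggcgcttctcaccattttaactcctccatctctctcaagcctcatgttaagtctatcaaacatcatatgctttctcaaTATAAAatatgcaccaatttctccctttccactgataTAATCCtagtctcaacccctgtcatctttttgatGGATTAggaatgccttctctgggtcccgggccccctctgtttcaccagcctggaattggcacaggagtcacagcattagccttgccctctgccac
LEUTX (chr19:39778604-39778853, plus strand): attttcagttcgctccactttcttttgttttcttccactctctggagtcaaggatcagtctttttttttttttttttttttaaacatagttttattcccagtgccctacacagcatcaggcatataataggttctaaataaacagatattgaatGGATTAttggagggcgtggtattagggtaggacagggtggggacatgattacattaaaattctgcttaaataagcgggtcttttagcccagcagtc
DUXA (chr19:57167486-57167735, minus strand): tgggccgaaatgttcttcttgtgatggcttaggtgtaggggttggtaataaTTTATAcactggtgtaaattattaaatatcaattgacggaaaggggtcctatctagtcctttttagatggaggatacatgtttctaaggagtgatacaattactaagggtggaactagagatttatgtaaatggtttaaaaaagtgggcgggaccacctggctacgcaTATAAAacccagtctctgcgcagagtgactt
KHDC1L (chr6:73225497-73225746, minus strand): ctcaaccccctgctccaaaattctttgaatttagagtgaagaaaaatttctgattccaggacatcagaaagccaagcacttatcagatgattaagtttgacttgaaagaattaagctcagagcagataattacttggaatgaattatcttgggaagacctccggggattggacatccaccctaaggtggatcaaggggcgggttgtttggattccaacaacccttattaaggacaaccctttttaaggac

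Counted from the start site, the ZSCAN4 promoter held TAATCC at -129 on the plus strand and at -95 on the minus strand, and the downstream LEUTX promoter held it once, at -96 on the minus strand. DUXA carried TATAAA at -31, where a TATA box usually lies. The KHDC1L window held neither motif but had TAATTA, another homeodomain core that reads the same on both strands, at -124. These matches are letters in a window of 300 bases (250 before and 50 after the start), not sites shown to be bound. Of all 35116 promoters in the table, 6.36% held TAATCC, 11.5% held TATAAA and 4.84% held TAATTA on either strand. Of the 9 entries for the 6 genes, 2 held TAATCC, 2 held TATAAA and 1 held TAATTA. A link between motif and level was not tested.

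Library totals ranged from 31.2 to 65.6 M (M, 1e6 counts), and levels are given in CPM, the counts of a gene per 1e6 counts of its library. Naive and primed state, SPEN siRNA and the XACT deletion were checked against the labels, and the targets of the PXGL KO and CRISPRi lines were not. The summed level of 6 naive pluripotency markers was 1765 to 2991 CPM in the naive libraries and 23.5 to 28.4 CPM in the primed ones. SPEN stood at 283.9 to 376 CPM with siScr, 152 to 177 CPM with siSPEN1 and 152 to 167 CPM with siSPEN2, and XACT at 1.14 to 2.17 CPM in NaiveCult WT and 0 to 0.124 CPM in XACT KO. The summed level of 6 fibroblast markers, which would mark feeder RNA left after the species filter, was 2.95 to 6.33 CPM in the PXGL and siRNA groups, 15.5 to 27.2 CPM in NaiveCult WT and 4.84 to 14.7 CPM in XACT KO. It was highest in Primed WT, at 75.1 to 82.7 CPM, where no feeders were used. Replicate 2 of NaiveCult WT stood apart for several of the genes described here, so XACT KO, PXGL WT and correlation values that rest on it are also given without it.

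Naive cells held RNA of 9 of the 10 genes and primed cells held almost none. The 3 Primed WT libraries together contained 0 counts of KDM4E, ARGFX and DUXA, 1 count each of LEUTX, TPRX1 and DPRX, 3 each of KHDC1L and ZSCAN5B, and 9 of ZSCAN4. H1-8 was the exception, with 7 counts in the primed libraries and 23 in all 30.

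KHDC1L was by far the most abundant. It stood at 377, 409 and 373 CPM in PXGL WT, at 619, 590 and 571 CPM in NaiveCult WT, and at 0.0392, 0.0197 and 0 CPM in Primed WT, so the naive and primed libraries were far apart. The ratio of its pooled level in PXGL WT to that in Primed WT was 21393, with a 95% counting interval of 7320 to 103741 that reflects the 3 primed counts. Such intervals, exact and conditional on the summed counts, cover counting error only.

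ZSCAN4 stood at 15.2, 14.2 and 13.9 CPM in PXGL WT and at 0.0588, 0.0987 and 0.0152 CPM in Primed WT. Its ratio was 269 (141 to 589). KDM4E, at 16.05, 13.7 and 15.7 CPM in PXGL WT and without a count in Primed WT, was at least 854-fold higher in the naive cells when 3 counts over the primed group were taken as the floor. ARGFX was at least 329-fold and DUXA at least 53.2-fold higher by the same floor. For TPRX1 the ratio was 2249 (403 to 88882), for LEUTX 549 (98.2 to 21734), for ZSCAN5B 59.9 (20.2 to 293) and for DPRX 51.2 (8.79 to 2062).

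In edgeR's quasi-likelihood test, with Benjamini-Hochberg adjustment over all genes tested, the 9 genes that passed the filter on low counts were all called higher in PXGL WT than in Primed WT, against 25.8% of the 18663 genes tested. The same 9 were called higher in NaiveCult WT than in Primed WT, against 21.1% of genes. With almost no counts in Primed WT, these genes could pass the filter only through their naive libraries. A call of higher was then nearly fixed, so the shares of all genes are no measure of how unusual the 9 are. "Called" means here an adjusted p below 0.05 and a fold change above 2 (1 on the log2 scale), and "passed" the first of these alone. The largest adjusted p was 1.0e-05, for DPRX, in PXGL WT and 2.6e-04, again for DPRX, in NaiveCult WT. H1-8 did not reach the filter in any fit. Its pooled level was 0.574 times the primed level in PXGL WT, with an interval of 0.123 to 2.26, so no difference was detectable there at this depth. The ratio was below 1 in every naive group. Only in CRISPRi UT, with 0 counts, did the interval exclude 1 (0 to 0.691), without adjustment for the number of groups. In such bulk libraries a smaller share of cells that express a gene and less of its RNA per cell cannot be told apart.

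**Figure D1:**
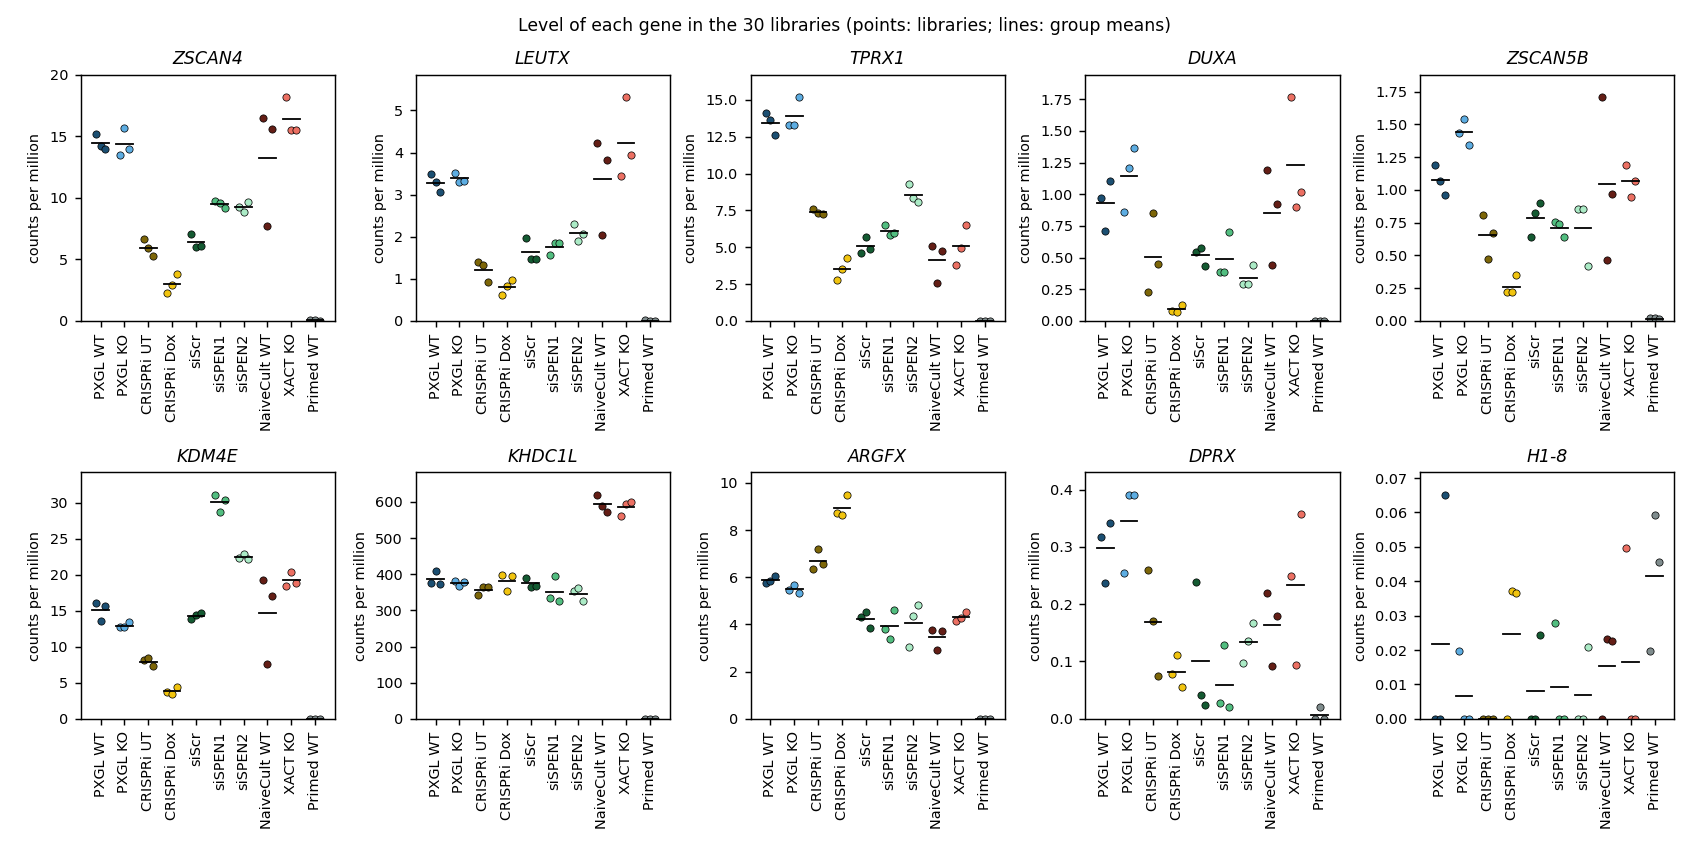
Level of each of the 10 genes in CPM (vertical axes, linear, each from 0) in the 10 groups (horizontal axes). Points are the 3 libraries of a group and lines are group means. Primed WT lies at or near 0 in every panel but that of H1-8, KHDC1L is the only gene above 300 CPM, and CRISPRi Dox has the lowest naive mean for ZSCAN4, LEUTX, TPRX1, DUXA, ZSCAN5B and KDM4E but the highest for ARGFX.

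Levels per kilobase of exon (CPM per kb) allow the genes to be set beside each other. Over the 27 naive libraries KHDC1L averaged 438 CPM per kb, followed by KDM4E at 6.68, ZSCAN4 at 4.58, TPRX1 at 3.55 and LEUTX at 2.68 CPM per kb. ARGFX averaged 1.04, DUXA 0.648, ZSCAN5B 0.469, DPRX 0.186 and H1-8 0.00929 CPM per kb. KHDC1L was also the steadiest of them, since its highest naive library was 1.90 times its lowest. The same ratio was 3.24 for ARGFX, 5.88 for TPRX1, 7.92 for ZSCAN4, 8.72 for LEUTX and 9.11 for KDM4E. It was 23.8 for DUXA and 18.9 for DPRX, where the lowest libraries held few counts (238 counts of DPRX in all 30 libraries).

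The groups fell into a similar order for several genes. The order runs across the identifier codes, so group and code cannot be told apart between groups that carry different ones. ZSCAN4 was highest in XACT KO (16.4 ± 1.5 CPM, SD, n = 3), PXGL WT (14.4 ± 0.64 CPM) and PXGL KO (14.4 ± 1.1 CPM). XACT KO lay above all PXGL WT libraries but overlapped PXGL KO, and PXGL WT and PXGL KO overlapped each other. NaiveCult WT followed at 13.3 ± 4.9 CPM. The siSPEN1 (9.50 ± 0.28 CPM) and siSPEN2 (9.25 ± 0.39 CPM) groups overlapped each other and lay below all PXGL WT libraries. Below them stood siScr (6.40 ± 0.60 CPM) and CRISPRi UT (5.95 ± 0.67 CPM), which overlapped, and CRISPRi Dox (3.02 ± 0.77 CPM). LEUTX and DUXA likewise had their highest means in XACT KO and their lowest naive means in CRISPRi Dox.

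Untreated control groups in the same medium differed. The CRISPRi UT libraries held 6.63, 5.92 and 5.30 CPM of ZSCAN4, all below the 13.9 to 15.2 CPM of PXGL WT, which carry the same code. In the fit over these 12 libraries, a comparison added after the values were seen, 5 of 9 genes passed as lower in CRISPRi UT than in PXGL WT against 11.4% of all genes, and 0 passed as higher against 13.5% (at an unadjusted p under 0.05, 7 were lower and 1, ARGFX, was higher). These were LEUTX (log2 fold change -1.42 ± 0.17, SE; adjusted p = 8.1e-06), ZSCAN4 (-1.27 ± 0.12; 4.0e-07), KDM4E (-0.93 ± 0.09; 6.5e-07), TPRX1 (-0.86 ± 0.10; 8.4e-06) and ZSCAN5B (-0.70 ± 0.24; 0.039). The clones, their repressor construct and any leak of it cannot be told apart in this comparison. A knockdown effect in the CRISPRi clones is thus measured from a lower base than that of PXGL WT.

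The CRISPRi clones had the most of these genes past the threshold among the comparisons between a perturbed naive group and its control. With doxycycline 6 of the 9 genes tested fell, 1 rose and 2 did not pass. The genes that fell were DUXA, ZSCAN5B, TPRX1, KDM4E, ZSCAN4 and LEUTX, and the gene that rose was ARGFX. Among all 17286 genes, 18.9% passed as lower and 20.7% as higher.

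ZSCAN4 went from 6.63, 5.92 and 5.30 CPM in CRISPRi UT to 2.29, 2.95 and 3.82 CPM in CRISPRi Dox. The groups did not overlap, and the log2 fold change was -1.003 ± 0.13 (SE; adjusted p = 5.8e-06). KDM4E, the histone demethylase, went from 8.11, 8.43 and 7.27 CPM to 3.70, 3.41 and 4.43 CPM. Again every treated library lay below every untreated one, and the log2 fold change was -1.06 ± 0.10 (adjusted p = 6.0e-08).

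The homeobox gene TPRX1 went from 7.61, 7.36 and 7.27 CPM to 2.81, 3.50 and 4.30 CPM, a log2 fold change of -1.09 ± 0.12 (adjusted p = 3.2e-07) without overlap. DUXA had the largest fold change but the fewest reads. It fell from 14, 45 and 24 counts to 5, 4 and 7 counts, or from 0.228, 0.849 and 0.450 CPM to 0.0780, 0.0742 and 0.128 CPM. The untreated libraries were spread over more than the distance between the lowest of them and the treated ones, and the log2 fold change was -2.42 ± 0.49 (adjusted p = 5.5e-04). ZSCAN5B fell from 50, 25 and 36 counts to 14, 12 and 19 counts, with a log2 fold change of -1.34 ± 0.29 (adjusted p = 0.0011) and no overlap. These 5 genes were the ones called lower, against 1.55% of all genes. With 1 library left out all 5 stayed past the adjusted p, but 3 could fall short of the fold threshold, with log2 fold changes of -1.21 to -0.82 for ZSCAN4, -1.26 to -0.93 for TPRX1 and -1.17 to -0.98 for KDM4E.

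LEUTX was the weakest of those that passed. It stood at 1.40, 1.32 and 0.936 CPM in CRISPRi UT and at 0.608, 0.834 and 0.970 CPM in CRISPRi Dox. The highest treated library lay above the lowest untreated one, and the log2 fold change of -0.63 ± 0.20 had an adjusted p of 0.017. It no longer passed without untreated replicate 1 (-0.51; adjusted p = 0.088) or 2 (-0.57; 0.063), without treated replicate 1 (-0.44; 0.11), or in a fit of the 6 CRISPRi libraries alone (-0.62; 0.087).

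ARGFX, a homeobox gene of the same class as LEUTX, moved the other way. It rose from 6.34, 7.19 and 6.56 CPM to 8.74, 8.66 and 9.48 CPM, with no overlap and a log2 fold change of 0.41 ± 0.09 (adjusted p = 7.2e-04). KHDC1L stood at 343, 365 and 365 CPM without and 398, 354 and 394 CPM with doxycycline, overlapping ranges with a log2 fold change of 0.08 ± 0.05 (adjusted p = 0.21). DPRX had 16, 9 and 4 counts in untreated and 5, 6 and 3 counts in treated clones, and its log2 fold change of -1.07 ± 0.53 did not pass (adjusted p = 0.12). The summed naive markers moved in the same clones, from 2650 to 2743 CPM without to 2337 to 2458 CPM with doxycycline, with KLF17 (-1.24) and SUSD2 (-0.72) lower, DPPA5 (0.28) higher and the other 3 of the 6 short of the threshold. The 4 hypoblast markers summed to 22.1 to 24.0 CPM without and 29.8 to 37.3 CPM with doxycycline. They did not move together, with GATA4 (0.97) and PDGFRA (0.96) higher, GATA6 (-1.01) lower and SOX17 short of the threshold. The part of these markers in the results was not tested.

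In the stable knockout of the same gene none of the 9 genes tested passed, for PXGL KO against PXGL WT, where 12.9% of all genes did, and DESeq2 passed 0 of them as well. At an unadjusted p under 0.05 there was 1. This was KDM4E, with 12.7, 12.7 and 13.4 CPM in PXGL KO and 16.05, 13.7 and 15.7 CPM in PXGL WT, a log2 fold change of -0.23 ± 0.09 (adjusted p = 0.092). It passed when only these 6 libraries were fitted (adjusted p = 0.0061). The knockout libraries of KDM4E all lay below the wild-type ones, by less than the step seen with doxycycline. The p-values for PXGL KO take technical replicates of 1 clone as samples and are therefore too small. With these libraries summed to 1 sample, again 0 of the 9 genes passed and 0 had an unadjusted p under 0.05, on the assumption that the lone sample varied like the other groups.

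For ZSCAN4 the knockout libraries held 13.5, 15.7 and 13.99 CPM and the wild-type libraries 15.2, 14.2 and 13.9 CPM, overlapping groups with a log2 fold change of -0.01 ± 0.11 (adjusted p = 0.98). TPRX1 differed by 0.05 ± 0.10, LEUTX by 0.04 ± 0.16 and ARGFX by -0.10 ± 0.09 on the log2 scale, with adjusted p values of 0.84, 0.91 and 0.55. ZSCAN5B was at 1.43, 1.54 and 1.34 CPM in PXGL KO and 1.19, 1.07 and 0.959 CPM in PXGL WT. Its groups did not overlap, but the log2 fold change of 0.42 ± 0.22 had an adjusted p of 0.25.

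Whether the 2 systems differed was tested as an interaction, the doxycycline effect minus the knockout effect, added after the values were seen. It passed for 6 of the 9 genes, against 21.8% of all genes in either direction. The difference on the log2 scale was -2.70 ± 0.59 for DUXA (adjusted p = 0.0025), -1.76 ± 0.37 for ZSCAN5B (0.0018), -1.13 ± 0.15 for TPRX1 (2.5e-05), -0.997 ± 0.17 for ZSCAN4 (3.5e-04) and -0.83 ± 0.13 for KDM4E (1.5e-04). For ARGFX it was 0.51 ± 0.12 (adjusted p = 0.0056). It did not pass for LEUTX (-0.67 ± 0.25; 0.065), DPRX (-1.26 ± 0.66; 0.18) or KHDC1L (0.12 ± 0.07; 0.23). With the knockout libraries summed to 1 sample the same 6 genes passed, with adjusted p values from 8.8e-04 (TPRX1) to 0.048 (ARGFX).

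**Figure D2:**
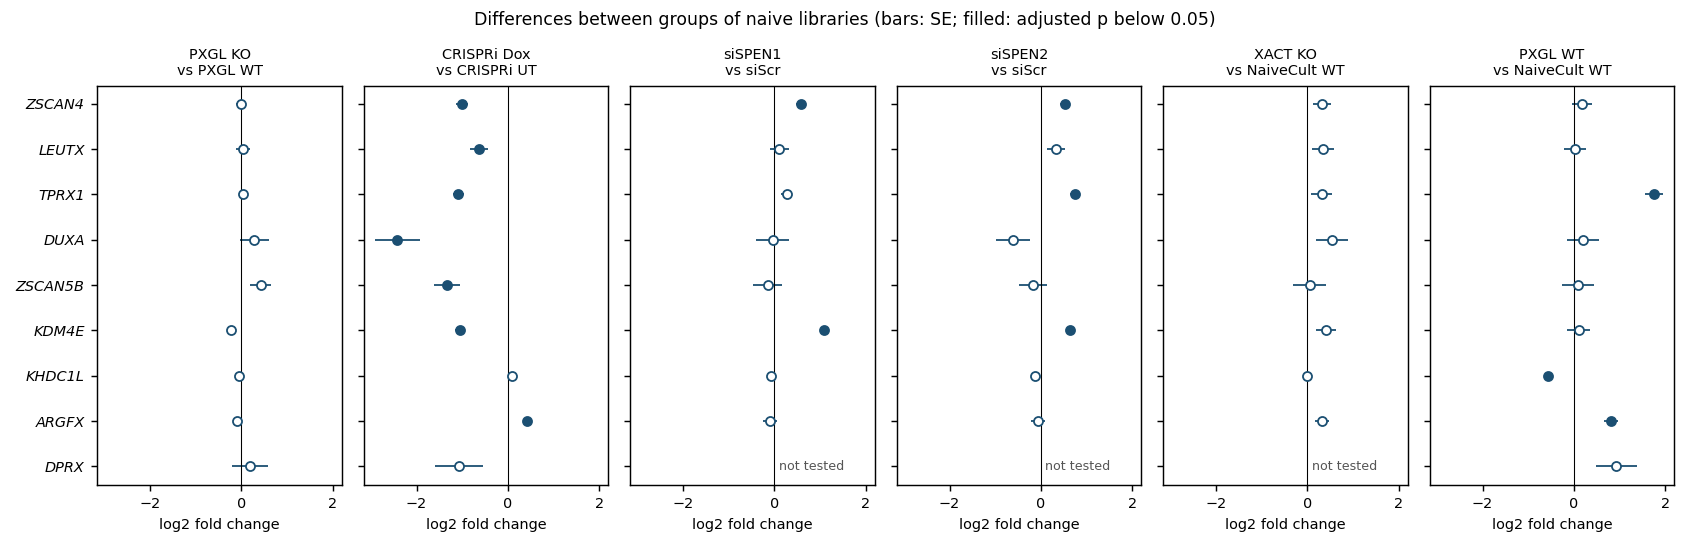
Log2 fold change (horizontal axes) of the 9 genes that reached the filter in at least 1 fit (rows), with 1 panel per comparison between naive groups. Bars are standard errors and filled points have an adjusted p below 0.05 in edgeR's quasi-likelihood test. In CRISPRi Dox 6 genes lie to the left and ARGFX to the right of 0, none of the points for PXGL KO or XACT KO is filled, and with SPEN siRNA the filled points are those of ZSCAN4 and KDM4E in both panels and of TPRX1 with siSPEN2.

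A few single genes were higher in cells given SPEN siRNA, while the median of the genes tested moved little. ZSCAN4 and KDM4E rose with both siRNA mixes, and TPRX1 rose with siSPEN2. With siSPEN1 2 of the 8 genes tested passed as higher and 0 as lower, against 20.8% of 16448 genes higher. With siSPEN2 3 of 8 passed as higher and 0 as lower, against 20.5% of genes higher. These shares, 25% and 37.5%, rest on 8 genes, and the first is near that of all genes. The median log2 fold changes of the 8 genes were 0.04 with siSPEN1 and 0.13 with siSPEN2. At an unadjusted p under 0.05 and in DESeq2 0 were lower with either mix. The 2 comparisons share the siScr libraries.

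KDM4E gave the clearest steps. Its 3 libraries stood at 13.8, 14.4 and 14.8 CPM with siScr, at 31.1, 28.8 and 30.4 CPM with siSPEN1, and at 22.4, 22.8 and 22.1 CPM with siSPEN2. The 3 groups were fully separate, with siSPEN1 the highest of all 10 groups. The log2 fold change against siScr was 1.08 ± 0.06 with siSPEN1 (adjusted p = 2.6e-11), which was a call against 2.24% of genes called higher, and 0.64 ± 0.06 with siSPEN2 (8.6e-08).

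ZSCAN4 stood at 7.09, 5.99 and 6.11 CPM with siScr, 9.75, 9.55 and 9.20 CPM with siSPEN1, and 9.23, 8.87 and 9.66 CPM with siSPEN2. Both SPEN groups lay above siScr and overlapped each other, with log2 fold changes of 0.58 ± 0.10 (adjusted p = 6.2e-05) and 0.52 ± 0.10 (1.9e-04). TPRX1 stood at 4.64, 5.70 and 4.90 CPM with siScr, 6.49, 5.84 and 5.96 CPM with siSPEN1, and 9.32, 8.33 and 8.08 CPM with siSPEN2. It rose with siSPEN2 by 0.74 ± 0.11 on the log2 scale (adjusted p = 1.3e-05). With siSPEN1 its groups also did not overlap, but its log2 fold change of 0.27 ± 0.11 did not pass (adjusted p = 0.062).

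Between siSPEN2 and siSPEN1 2 of the 8 genes passed, where 34.7% of all genes did in either direction. TPRX1 was higher with siSPEN2 by 0.47 ± 0.11 on the log2 scale (adjusted p = 0.0019). KDM4E was lower with siSPEN2, by -0.44 ± 0.06 (adjusted p = 8.2e-06). ZSCAN4 differed by -0.06 ± 0.10 (adjusted p = 0.69). SPEN itself overlapped between both groups (163 ± 13 and 157 ± 8.3 CPM, SD, n = 3).

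LEUTX, ARGFX, DUXA, ZSCAN5B and KHDC1L did not pass with either mix. KHDC1L passed as lower with siSPEN2 when only 6 libraries were fitted (-0.12; adjusted p = 0.033) and with siSPEN1 without siSPEN1 replicate 2 (-0.17; 0.017). LEUTX held 1.97, 1.48 and 1.48 CPM with siScr, 1.56, 1.86 and 1.86 CPM with siSPEN1, and 2.29, 1.90 and 2.06 CPM with siSPEN2. Both SPEN ranges overlapped that of siScr, with adjusted p values of 0.69 and 0.19, and siSPEN2 lay above siSPEN1. DUXA, at 23, 28 and 18 counts with siScr and 12, 15 and 21 counts with siSPEN2, had a log2 fold change of -0.61 ± 0.37 (adjusted p = 0.20). DPRX, with 13 counts in siScr, 6 in siSPEN1 and 19 in siSPEN2, was too rare to be tested. The summed primed markers differed between these groups as well, at 134 to 137 CPM with siScr, 52.04 to 56.02 CPM with siSPEN1 and 63.0 to 63.4 CPM with siSPEN2. CD24 was lower with siSPEN1 (-1.35) and siSPEN2 (-1.17), while ZIC2, the other primed marker tested, was at 0.10 (adjusted p = 0.64) and 0.56 (0.0064). Hypoblast markers summed to 48.5 to 51.4 CPM with siScr, 39.5 to 41.5 CPM with siSPEN1 and 28.7 to 32.4 CPM with siSPEN2, and naive markers to 2544 to 2618, 2859 to 2991 and 2500 to 2664 CPM. The part of these markers in the results was not tested.

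Loss of XACT brought none of the genes past the threshold. Of the 8 genes tested between XACT KO and NaiveCult WT 0 passed, against 0.425% of 16472 genes. At an unadjusted p under 0.05 the count was also 0, the lowest being 0.054 for ARGFX, and DESeq2 passed 0 of them. Log2 fold changes ran from -0.01 (KHDC1L) to 0.54 (DUXA).

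The NaiveCult WT libraries were widely spread. KDM4E stood at 19.3, 7.55 and 17.1 CPM in NaiveCult WT and at 18.4, 20.4 and 18.9 CPM in XACT KO. ZSCAN4 stood at 16.5, 7.69 and 15.6 CPM in NaiveCult WT and at 18.2, 15.5 and 15.5 CPM in XACT KO. In both, replicate 2 lay well below the other 2 wild-type libraries, and those 2 lay within or next to the knockout range. LEUTX (4.22, 2.04 and 3.83 CPM), TPRX1 (5.07, 2.58 and 4.73 CPM), DUXA (1.19, 0.441 and 0.923 CPM) and ZSCAN5B (1.71, 0.465 and 0.968 CPM) were lowest in the same library. KHDC1L was not, at 619, 590 and 571 CPM.

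Without replicate 2 the log2 fold change between XACT KO and NaiveCult WT went from 0.32 to 0.05 for ZSCAN4, from 0.41 to 0.10 for KDM4E, from 0.34 to 0.09 for LEUTX, from 0.54 to 0.23 for DUXA, from 0.31 to 0.07 for TPRX1, and from 0.05 to -0.30 for ZSCAN5B. All 8 stayed short of the threshold. That library had 1765 CPM of summed naive markers and 143 CPM of summed primed markers, against 1925 to 2018 CPM and 103 to 126 CPM in the other 2, and 18.3 CPM of fibroblast markers, between the other 2. Their part in its low values was not tested.

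PXGL WT and NaiveCult WT, the wild-type naive cells of the 2 resetting systems, differed in 3 of 9 genes. TPRX1 and ARGFX were higher in PXGL WT and KHDC1L was lower, in a comparison in which 35.7% of all genes passed as higher and 34.9% as lower. TPRX1 stood at 14.1, 13.6 and 12.6 CPM in PXGL WT against 5.07, 2.58 and 4.73 CPM in NaiveCult WT, far apart and with a log2 fold change of 1.76 ± 0.20 (adjusted p = 2.1e-06). It was the only one called, against 16.3% of genes called higher.

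ARGFX stood at 5.77, 5.85 and 6.05 CPM in PXGL WT and 3.76, 2.93 and 3.71 CPM in NaiveCult WT, a log2 fold change of 0.82 ± 0.15 (adjusted p = 4.4e-04). KHDC1L was lower by -0.56 ± 0.06 (adjusted p = 1.5e-06). All 3 still passed without NaiveCult WT replicate 2, where TPRX1 had a log2 fold change of 1.52, ARGFX 0.72 and KHDC1L -0.56. For ZSCAN4 the difference was 0.18 ± 0.21 with and -0.09 without that library, and for KDM4E 0.10 ± 0.25 with and -0.21 without it, so the direction of neither is settled. Feeder and trophoblast markers also differed between these groups. The latter summed to 32.7 to 35.3 CPM in PXGL WT and 341 to 434 CPM in NaiveCult WT, and their part in the results was not tested.

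Across the 27 naive libraries the genes did not move as a single block. As a description, Pearson's r of log2 CPM was 0.96 between ZSCAN4 and LEUTX, 0.87 between ZSCAN4 and DUXA, 0.86 between ZSCAN4 and ZSCAN5B, 0.72 between ZSCAN4 and KDM4E, and 0.51 between ZSCAN4 and TPRX1. It was 0.42 between ZSCAN4 and KHDC1L. ARGFX was at -0.52 to ZSCAN4 and -0.74 to KDM4E, but at 0.09 to TPRX1 and 0.10 to DPRX. These values share group differences, since libraries of a group lie together.

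Within groups, from deviations of each library from its group mean, r was 0.83 between ZSCAN4 and KDM4E, 0.77 between ZSCAN4 and LEUTX, 0.74 between TPRX1 and KDM4E and 0.65 between ZSCAN4 and TPRX1. ARGFX turned to the positive side, at 0.36 to ZSCAN4 and 0.43 to KDM4E, while KHDC1L was at -0.05 to ZSCAN4 and 0.03 to KDM4E. Much of this rested on NaiveCult WT replicate 2. Over the 26 other libraries r was 0.38 between ZSCAN4 and KDM4E, 0.54 between ZSCAN4 and LEUTX, 0.38 between TPRX1 and KDM4E, 0.22 between ZSCAN4 and TPRX1, and 0.07 and 0.17 for ARGFX with ZSCAN4 and KDM4E. Without group means removed it stayed at 0.96 between ZSCAN4 and LEUTX and 0.72 between ZSCAN4 and KDM4E. The CPM of all genes of a library share 1 total.

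**Figure D3:**
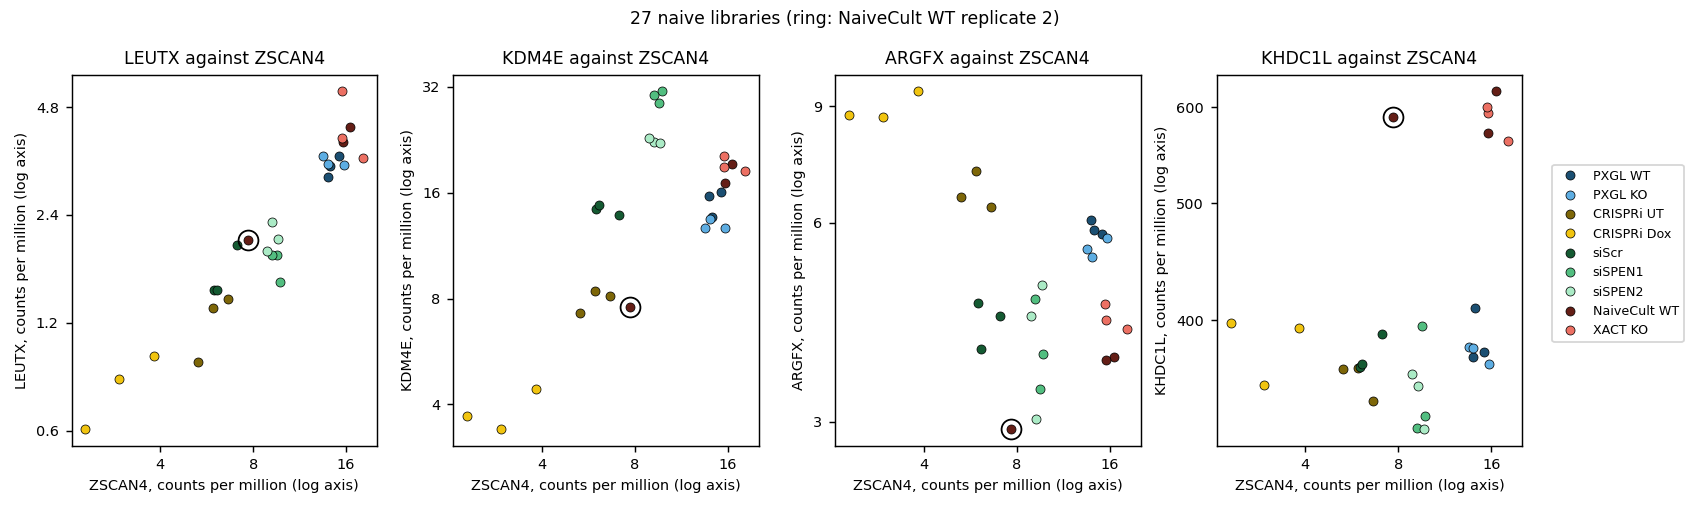
LEUTX, KDM4E, ARGFX and KHDC1L (vertical axes) against ZSCAN4 (horizontal axes) in the 27 naive libraries, in CPM on log axes; colors mark the 9 groups and the ring marks NaiveCult WT replicate 2. LEUTX rises along with ZSCAN4, KDM4E does so with the SPEN siRNA groups above the rest, ARGFX is highest where ZSCAN4 is lowest, and KHDC1L separates NaiveCult WT and XACT KO from the PXGL groups at any level of ZSCAN4.

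The genes most like the 2 most abundant members were sought by Pearson's r of log2(CPM + 0.1) over the 30 libraries among 18625 genes. For KHDC1L they were NLRP7, CTSF, ZNF98, ZNF727 and DPPA5, each with r of 1.00 after rounding, and for KDM4E they were WNT7A (0.99), ZNF614 (0.99), ARSI (0.99), TRIM49C (0.99) and MX1 (0.99). Both lists rest on the gap between 27 naive and 3 primed libraries. With a pseudocount of 1, 3 of the 5 genes were shared for KHDC1L and 2 of 5 for KDM4E, and with Spearman's rho 0 and 1 were shared.

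Further genes of the same stage, a list of 25 other eight-cell genes and DUX4 targets of which 23 had rows, gave the background of the programme. TPRX2, the near copy of TPRX1, is not analysed here. With doxycycline in the CRISPRi clones 16 of the 22 tested passed as lower and 0 as higher, against 18.9% and 20.7% of all genes. The counts were the same in edgeR and in DESeq2 (19 and 0 at an unadjusted p under 0.05). The median log2 fold change was -0.90, against -0.00 over all genes. UBTFL1 (-2.69 ± 0.64; adjusted p = 0.0023), CCNA1 (-1.37 ± 0.09; 2.8e-10), a germline cyclin, and RFPL4A (-1.33 ± 0.23; 1.2e-04) fell most among those called. In PXGL KO 1 of 22 passed as higher and 0 as lower (5 and 1 at an unadjusted p under 0.05, and 2 and 0 in DESeq2), against 12.9% of all genes in either direction. The interaction passed in 15 of 22, all toward a lower doxycycline effect, against 21.8% of all genes in either direction. With the knockout libraries summed to 1 sample these counts were 0 and 9 (3 higher and 0 lower in PXGL KO at an unadjusted p under 0.05).

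With SPEN siRNA 12 of these 22 genes passed as higher with each mix, against 20.8% (siSPEN1) and 20.5% (siSPEN2) of all genes. On the lower side 0 (siSPEN1) and 1 (siSPEN2) passed, as also at an unadjusted p under 0.05 and in DESeq2. The median log2 fold changes were 0.47 and 0.42, against -0.00 over all genes for both. RFPL4B was the 1 gene called with siSPEN1, at 1.01 ± 0.14 (adjusted p = 6.4e-06). In XACT KO 0 of 20 passed in edgeR or DESeq2, with 2 higher and 1 lower at an unadjusted p under 0.05. Against Primed WT 20 of 21 were called higher in both PXGL WT and NaiveCult WT, where 25.8% and 21.1% of all genes were. Of the 23 genes with rows, 15 had 0 counts in Primed WT. Those of them that were tested passed the filter through naive libraries and could only come out higher, so the shares of all genes are no measure here. TRIM43 and TRIM49 were among the largest differences. Between CRISPRi UT and PXGL WT 17 of 22 passed as lower and 1 as higher, against 11.4% and 13.5% of all genes. Members of the TRIM43, TRIM49, PRAMEF, MBD3L and RFPL4 families have near-identical copies, so that their single values are uncertain.

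**Figure D4:**
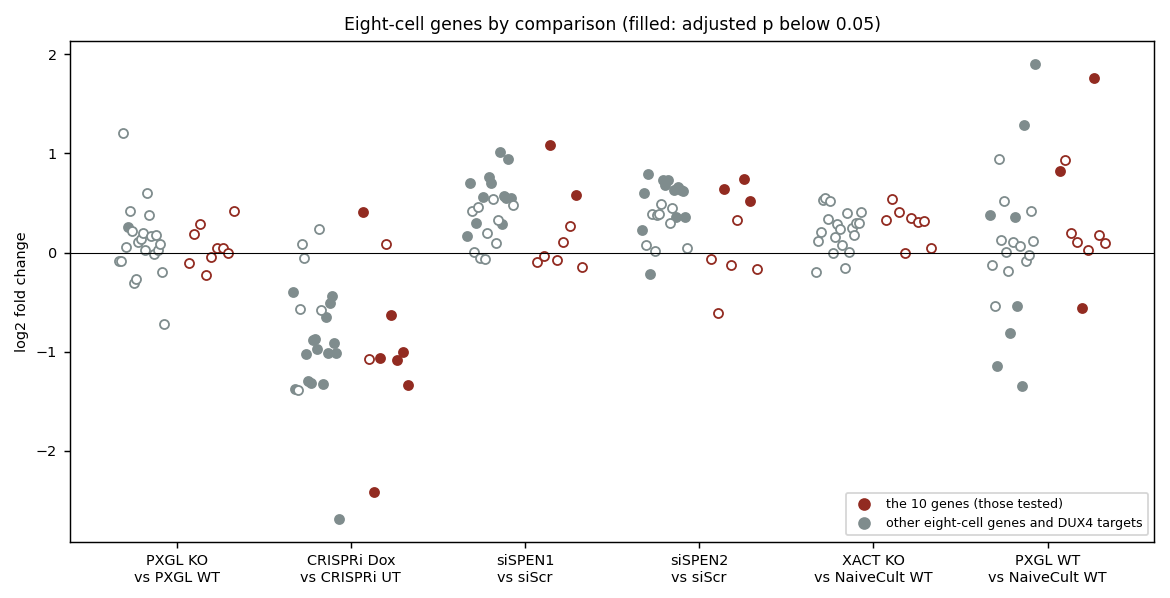
Log2 fold change (vertical axis) of the tested genes among the 10 (red) and of the list of other eight-cell genes and DUX4 targets (grey) in 6 comparisons between naive groups (horizontal axis). Each point is a gene, and filled points have an adjusted p below 0.05. Most points lie below 0 in CRISPRi Dox and above 0 with both SPEN siRNA mixes, while PXGL KO has 1 filled point and XACT KO none.

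DUX4, the transcription factor that opens the eight-cell programme, was near its limit of detection. Its summed counts were 28 in PXGL WT, 63 in PXGL KO, 36 in CRISPRi UT, 14 in CRISPRi Dox, 36 in siScr, 43 in siSPEN1 and 41 in siSPEN2. They were 1 in NaiveCult WT, 4 in XACT KO and 0 in Primed WT. The log2 fold change was 1.21 ± 0.45 in PXGL KO (adjusted p = 0.088) and -1.39 ± 0.55 with doxycycline (0.051), neither past the threshold, while the interaction of -2.60 ± 0.71 passed (adjusted p = 0.012), but not with the knockout libraries summed to 1 sample (0.052). DUX4 lies in repeat arrays with many copies, so its counts are uncertain.

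DPPA2 and DPPA4, chromatin factors known to act upstream of the corresponding mouse programme, moved against ZSCAN4 with doxycycline and with it under siSPEN1. They belong to a list of 14 regulators and chromatin repressors, all tested. In this list 4 passed as higher and 5 as lower with doxycycline, against 20.7% and 18.9% of all genes. With siSPEN1 9 passed as higher and 1 as lower, and with siSPEN2 6 and 0, against 20.8% and 20.5% of all genes higher. With doxycycline DPPA2 rose from 17.9 to 19.9 CPM in CRISPRi UT to 25.4 to 29.8 CPM in CRISPRi Dox (log2 fold change 0.49 ± 0.07; adjusted p = 6.0e-06), and DPPA4 rose by 0.09 ± 0.03 (0.038). With siSPEN1 both rose, DPPA2 by 0.33 ± 0.08 (adjusted p = 0.0021) and DPPA4 by 0.19 ± 0.06 (0.0081), and with siSPEN2 neither passed (adjusted p = 0.19 and 0.25). DPPA2 was also lower in CRISPRi UT than in PXGL WT (-0.24 ± 0.07; adjusted p = 0.011), as ZSCAN4 was. DPPA4 was not a naive marker here, at 744 to 832 CPM in Primed WT and 655 to 676 CPM in PXGL WT.

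Among 13 oocyte and maternal-effect genes, of which 8 were tested in the CRISPRi fit, 2 passed as higher and 2 as lower with doxycycline, against 20.7% and 18.9% of all genes. TLE6, a subunit of the subcortical maternal complex, rose by 1.70 ± 0.26 (adjusted p = 3.0e-05). PADI6, another protein of that complex, rose by 1.27 ± 0.34 with siSPEN1 (adjusted p = 0.0049) and by 1.15 ± 0.34 with siSPEN2 (0.0094). Against Primed WT the naive cells held more KHDC3L, NLRP7 and OOEP, with log2 fold changes in PXGL WT of 13.07 ± 0.16, 9.79 ± 0.11 and 8.36 ± 0.19, and less TLE6 (-1.97 ± 0.43).

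Of 13 close relatives with rows, 12 were tested in the CRISPRi fit, where 4 passed as higher and 2 as lower with doxycycline, against 20.7% and 18.9% of all genes. KDM4D, the nearest relative of KDM4E, was lower in naive than in primed cells, at 1.28 ± 0.10 CPM in PXGL WT and 7.25 ± 0.46 CPM in Primed WT, the reverse of KDM4E. KHDC1, whose product resembles that of KHDC1L, was at 9.10 ± 0.79 CPM in PXGL WT and 10.6 ± 0.27 CPM in Primed WT. DUXB, the relative of DUXA, stood at 2.02 ± 0.21 CPM in PXGL WT and had 1 count in Primed WT. It was lower in CRISPRi UT than in PXGL WT by -1.28 ± 0.22 on the log2 scale (adjusted p = 2.6e-04), as ZSCAN4 was, while its doxycycline effect of -0.57 ± 0.25 did not pass (adjusted p = 0.077).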

How the data were processed

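Ribosomal RNA-depleted total RNA of 30 H9 libraries was sequenced. The authors deposited 1 table of raw counts per library, whole numbers of reads per gene without normalization. Per the submitters' processing notes and the study's methods, reads were trimmed with Trim Galore 0.6.5, mapped with Bowtie2 in local mode to hg38 and to the mouse genome, deduplicated with Picard 2.23.5 and filtered at a mapping quality of 10. Mouse feeder reads were discarded with XenofilteR, and exonic reads were counted by strand with HTSeq 0.13.5. Reads that fit near-identical copies equally well were lost at the mapping filter, so genes with close paralogs or pseudogenes (ZSCAN4, ZSCAN5B, DUXA, TPRX1, DUX4) are uncertain, and Bowtie2 does not splice reads over introns.

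Groups were taken from the labels. The gene targeted in the PXGL KO and CRISPRi lines is not reported here. Members and gene lists were chosen with earlier results of these data known. Levels were CPM (counts per 1e6 counts of the library), over totals of 31.2 to 65.6 M (1e6) counts, and depth limits genes of a few counts per library. Exon lengths and positions came from GENCODE 44 and promoters from RefSeq (GRCh38.p14). ZSCAN4 lies at chr19:57668935-57679152, LEUTX at chr19:39776595-39786291, TPRX1 at chr19:47801232-47819051, DUXA at chr19:57154021-57167485, ZSCAN5B at chr19:56189686-56197815, KDM4E at chr11:95025258-95027596, KHDC1L at chr6:73223544-73225770, ARGFX at chr3:121567949-121590622, DPRX at chr19:53600777-53637014 and H1-8 at chr3:129543175-129551467 (hg38).

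Differences were tested in R 4.3.3 with edgeR 4.0.16 (TMM scaling, filterByExpr with a minimum count of 10 and a minimum total of 15, quasi-likelihood F-test, Benjamini-Hochberg adjustment over all genes tested). Fits covered the 12 PXGL WT, PXGL KO and CRISPRi libraries, the 9 siRNA libraries, the 6 NaiveCult WT and XACT KO libraries, and the 9 PXGL WT, NaiveCult WT and Primed WT libraries, and were tested on simulated data. No pair of libraries was identical within sampling noise. The study states biological replicates for its RNA-seq groups, except for technical replicates of the PXGL KO clone, whose p-values measure technical spread on that side. These technical replicates also enter the spread shared by the other comparisons of the 12-library fit. An exact permutation test of 3 against 3 libraries cannot go below p = 0.1 and was not used for calls. Alternatives were no filter, a filter at 1 CPM, library totals without TMM, only the libraries compared, a replicate block, DESeq2 1.42.0, leaving out each replicate and, added after the data were seen, PXGL KO libraries summed to 1 sample. The text names all 10 members, genes of the other lists where called (at most 3 per direction, list and comparison), DPPA2, DPPA4 and DUX4, and the 5 genes most like KHDC1L and KDM4E. Gene families and single genes outside this rule, such as KDM4D, KHDC1 and DUXB levels, were named after their values were seen.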

Additional observations from a re-analysis of the deposited data

Results flagged for a closer look

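In 6 of the 9 genes tested the doxycycline effect in the CRISPRi clones and the knockout effect in PXGL cells differed by a test of the interaction. Both systems target the same gene, and the interaction passed in 21.8% of all genes. The differences in log2 fold change (doxycycline minus knockout) were -0.997 for ZSCAN4, -1.13 for TPRX1, -2.70 for DUXA, -1.76 for ZSCAN5B, -0.83 for KDM4E and 0.51 for ARGFX, and all 6 passed with the knockout libraries, which are technical replicates, summed to 1 sample. The CRISPRi cells were 3 clones with an inducible repressor, compared with and without the drug, and the knockout was 1 clone compared with wild-type cells, so the kind of perturbation, the clones and the drug cannot be told apart.

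The siRNA mixes against SPEN differed from each other in TPRX1, which was higher with siSPEN2 than with siSPEN1 by 0.47 on the log2 scale, and in KDM4E, which differed by -0.44 in the same direction of comparison. These were 2 of the 8 genes tested, while 34.7% of all genes passed between the mixes, so such a difference is not particular to them. SPEN stood at 152 to 177 CPM with siSPEN1 and 152 to 167 CPM with siSPEN2.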

How the results depend on the processing

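Of the log2 fold changes of the 10 genes, 456 of 464 refits that kept all libraries, and 426 of 462 that left out a library, kept their direction and their side of the threshold. Requiring 1 CPM in 3 libraries lowered the number of genes called to 132 in PXGL KO (222) and 361 with doxycycline (658). With this filter 515 were called with siSPEN1 (836), 401 with siSPEN2 (697) and 253 between the mixes (412). The cause of these lower numbers was not tested. With the technical replicates of PXGL KO summed to 1 sample, added after the data were seen, 139 genes were called in PXGL KO. Summing left fewer samples in the fit and also took the spread between these replicates out of it. Which of these lowered the number was not tested. Genes called in XACT KO numbered 19, 68 without a filter, 51 with a replicate block, and 0 to 68 when a library was left out. They fell to 0 without XACT KO replicate 1 or 3, where 2841 and 2652 genes had an unadjusted p under 0.05, and to 2 without NaiveCult WT replicate 2. With DESeq2 they were 26, and the cause was not tested. Replicate numbers did not pair the libraries (correlations of deviations from -0.07 to 0.07), except weakly between siSPEN2 and siSPEN1. There the same-numbered libraries were at 0.03 to 0.07 and differently numbered ones at most at 0.02. The replicate block moved no call of the 10 genes. TMM and library totals differed by 0.15 and 0.21 in the median log2 fold change of all genes against Primed WT.

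Directions that reversed belonged to genes that had not passed. ZSCAN4 in PXGL KO was at 0.0023 in a fit of 6 libraries, 0.0035 with the knockout libraries summed and -0.0637 to 0.0374 with a library left out. In the same comparison LEUTX ran from -0.0094 to 0.0900, TPRX1 from -0.0207 to 0.0886 and KHDC1L from -0.0678 to 0.0168. With siSPEN1 DUXA ran from -0.40 to 0.12, and with siSPEN2 ZSCAN5B ran from -0.32 to 0.10 and ARGFX from -0.21 to 0.11. Between the mixes ZSCAN5B was at 0.0035 with library totals and ran from -0.18 to 0.25, KHDC1L from -0.11 to 0.0641 and ARGFX from -0.11 to 0.18. In XACT KO ZSCAN5B ran from -0.30 to 0.58 and KHDC1L from -0.0433 to 0.0208. Between PXGL WT and NaiveCult WT LEUTX was at -0.0343 with library totals and ran from -0.23 to 0.22, ZSCAN4 from -0.0925 to 0.37, DUXA from -0.11 to 0.51, ZSCAN5B from -0.25 to 0.63 and KDM4E from -0.21 to 0.35. The cause was not tested. DPRX and H1-8, and DUXA and ZSCAN5B in part, are limited by counts.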

Other observations

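KHDC1L and TPRX1 ordered the naive groups differently. KHDC1L had its 2 highest means in NaiveCult WT (593 CPM) and XACT KO (585 CPM), where TPRX1 was at 4.13 and 5.08 CPM, near the 3.54 CPM of CRISPRi Dox. PXGL KO had the highest means of TPRX1 (13.9 CPM) and ZSCAN5B (1.44 CPM). ARGFX had its lowest naive mean in NaiveCult WT (3.47 CPM) and its highest in CRISPRi Dox (8.96 CPM).

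H1-8, the oocyte linker histone, was found in 13 of the 30 libraries with 23 counts in all, and 7 of these lay in Primed WT. CRISPRi UT held 0 counts, which allows up to 0.0179 CPM by the floor of 3 counts over the group.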
